A study of Mus musculus with 8 samples.

Results

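The cytosolic ribosomal proteins are the proteins that, with ribosomal RNA, build the large and the small subunit of the ribosome. Their genes were taken by symbol: names that start with Rpl or Rps followed by a number, with or without the paralogue endings a, x, y and l, together with Rplp0, Rplp1, Rplp2 and Rpsa. Symbols of annotated pseudogenes and of the Rps6k kinases were left out. The rule found 85 genes among the 23469 symbols of the deposited tables, 52 of the large subunit (Rpl symbols) and 33 of the small subunit (Rps symbols). No measured value entered the choice.

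RNA was measured in germinal centre B cells, the B220+ FAShigh GL7high cells sorted from mice on day 13 after immunization with NP-KLH, on the C57BL/6 background per the labels. The libraries labelled Irf8 cKO came from CD19cre/+ Irf8flox/flox mice (n = 2), and the Ctrl libraries from CD19cre/+ Irf8+/+ mice (n = 2), with 1 library of each in experiment 1 and 1 of each in experiment 2. Both groups thus carried the CD19cre allele, which expresses Cre in B-lineage cells, and none of these libraries lacks it. The series also holds 4 samples from LPS cultures (10 µg/ml, 72 h), not analysed here.

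Most ribosomal protein genes are transcribed in every cell, and most of their products assemble with ribosomal RNA in the nucleolus. Most of the proteins are needed in equal amounts, so the genes of both subunits are usually expressed together. Many of their mRNAs begin with a terminal oligopyrimidine (TOP) motif, a run of C and U at the cap that lets mTOR and Larp1 control their translation. Germinal centre B cells divide rapidly, which calls for ribosome production, and Irf8 is a transcription factor of the B and myeloid lineages that binds DNA with Ets family partners at composite elements.

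The motif that names the TOP mRNAs lies at the start of the transcript, so 30-base windows around the annotated start are shown. They run from 20 bases before to 10 bases from that start, 5′ to 3′ on the gene's own strand, from RefSeq on GRCm38.p6. Capitals mark a run of 5 or more pyrimidines (C or T) within 5 bases of the start, where one was found. A marked run need not hold the annotated start itself, and that of Rpl4 ends upstream of it. Runs farther off are not marked. Of the large subunit genes these were chosen:

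Rpl4, chr9:64173367-64173396, plus strand: agTCTTTCCTTTTCCTgtgggagcagccgg

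Rplp2, chr7:141447631-141447660, plus strand: cccactgcgtcagcgTCTTCCTTTCgccgc

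Rpl28, chr7:4792945-4792974, plus strand: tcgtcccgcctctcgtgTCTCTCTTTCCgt

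Rpl41, chr10:128549159-128549188, minus strand, with no run of 5 or more within 5 bases of the start: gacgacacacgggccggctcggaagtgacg

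Of the small subunit genes, 3 with a run and 1 without are given:

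Rps24, chr14:24490658-24490687, plus strand: acgcccccgcgctggggTCCTTCCTTgcgc

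Rps27, chr3:90213639-90213668, minus strand: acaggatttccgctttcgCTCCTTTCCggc

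Rps9, chr7:3704021-3704050, plus strand: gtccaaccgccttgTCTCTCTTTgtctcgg

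Rps15, chr10:80292411-80292440, plus strand, with no run of 5 or more within 5 bases of the start: gccctcccggcagagctcgcgataactgcg

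Promoters of 300 bases (250 before to 50 after the start) were matched for 64 of the 85 genes. A pyrimidine run of 5 or more within 5 bases of the start was present in 34 of the 64 promoters (53.1%), against 32.4% of the 4874 promoters of tested genes. Runs of 10 or more within 5 bases of the start, not all of which hold the start itself, were present in 17 of the 64 (26.6%), against 5.33% of the tested genes. The Ets motif CGGAAG, searched on both strands, was found in 42 of the 64 promoters (65.6%), against 40.0% of the tested genes and 21.8% of all 16462 promoters of the tables. Examples are shown with the motif in capitals, all upstream of the start:

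Rpl41, chr10:128549206-128549235, minus strand: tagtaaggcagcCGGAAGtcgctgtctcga

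Rpl4, chr9:64173316-64173345, plus strand: aggggcaggatgCGGAAGacgagtggaagg

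Rps15, chr10:80292373-80292402, plus strand: gtatccgcagagCGGAAGctgttgagcggt

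Rpsa, chr9:120127693-120127722, plus strand: ctttttccggagCGGAAGttctcccttttt

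Letters of elements that IRF proteins can bind were counted in the same windows. GGAA followed after 2 bases by GAAA, an Ets-IRF composite, was found in 1 of the 64 promoters (1.56%), against 2.44% of the tested genes, and GAAA followed after 2 bases by GAAA, an interferon-type element, in 6 of the 64 (9.38%), against 3.16%. AAGATGGC, the letters of a Yy1 site, was found in 5 (7.81%), against 6.38%, and TATAAA in 6 (9.38%), against 6.50%. All motifs were searched on both strands, CGGAAG and the Ets-IRF composite can overlap in the letters GGAA, and a match describes letters and not binding.

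The deposited values are RPKM, that is, reads relative to both the length of the transcript and the reads of its library, and levels below are on this scale, with the value of experiment 1 given before that of experiment 2. The smallest steps of the values put the depth at about 76280000 and 63830000 reads in the libraries labelled Irf8 cKO, against 73140000 and 63230000 reads in Ctrl. Library 2 labelled Irf8 cKO stood apart: 4845 genes reached 1 RPKM there, against 6171 in the library labelled Irf8 cKO of experiment 1 and 6566 and 6433 in Ctrl. The record of the ribosomal RNA precursor, Rn45s, was at 8589 and 16716 RPKM in the libraries labelled Irf8 cKO, against 9085 and 5887 RPKM in Ctrl. Because the deposited scale depends on the makeup of each library, values were also divided by a size factor for each library, the median of ratios over the tested genes (factors of 1.07 and 0.658 under the cKO label, against 1.28 and 1.14 in Ctrl), and these are called scaled. Irf8 itself was at 20.6 and 11.6 RPKM in the libraries labelled Irf8 cKO, against 14.5 and 14.9 RPKM in Ctrl (log2 difference 0.08 ± 0.35 (SE), limma adjusted p = 0.880). Scaled, it was higher under the cKO label in both experiments (0.72 and 0.41), with a mean difference of 0.56 ± 0.18 (SE, limma adjusted p = 0.400). Its whole-gene value was thus not lower under the cKO label; reads from exons outside the deleted part would still count, so this value checks neither the deletion nor the label.

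The defining markers of germinal centre B cells were present in all libraries. Their summed level over 9 genes was 279 and 181 RPKM in the libraries labelled Irf8 cKO, against 404 and 340 RPKM in Ctrl. T cell markers, 5 of 6 in the tables, summed to at most 0.0977 RPKM in any library, with Cd3g at 0 everywhere, and the 4 erythroid markers summed to under 1 RPKM in each. Myeloid markers, 5 of 6 in the tables, summed to 16.9 and 2.24 RPKM in the libraries labelled Irf8 cKO, against 65.0 and 7.74 RPKM in Ctrl. Of the 3 tested, 2 were called lower as deposited, against 1.09% of all tested genes, and 0 scaled, against 0.0465%. Of the 9 germinal centre markers, all tested, 1 was called as deposited and 0 scaled. Naive B cell markers summed to 5.57 and 6.41 RPKM, against 10.9 and 14.7 RPKM in Ctrl, and plasma cell markers to 29.1 and 16.0 RPKM, against 38.6 and 22.2 RPKM in Ctrl. Markers of germinal centre, myeloid, naive and plasma cells were thus lower as deposited, as were the ribosomal protein genes, and their part in the results was not tested.

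A gene was tested when it reached 1 RPKM in at least 2 of the 4 libraries, which 81 of the 85 did, 49 of the large and 32 of the small subunit. The estimated reads in a gene's shallowest library had a median of 1239 over the 81. All 85 together took 8.54% and 8.78% of the summed RPKM outside Rn45s in the libraries labelled Irf8 cKO, against 10.3% and 8.45% in Ctrl. Among the tested genes the median level of the large subunit was 28.6 and 19.7 RPKM in the libraries labelled Irf8 cKO, against 40.5 and 33.9 RPKM in Ctrl. The median of the small subunit was 46.4 and 29.7 RPKM, against 73.6 and 45.6 RPKM in Ctrl. In every library the median small subunit gene therefore lay above the median large subunit gene, and the order of the genes was close between libraries (Pearson's r of log2 levels across the 81 genes 0.937 to 0.977, with genes not independent replicates).

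**Figure D1:**
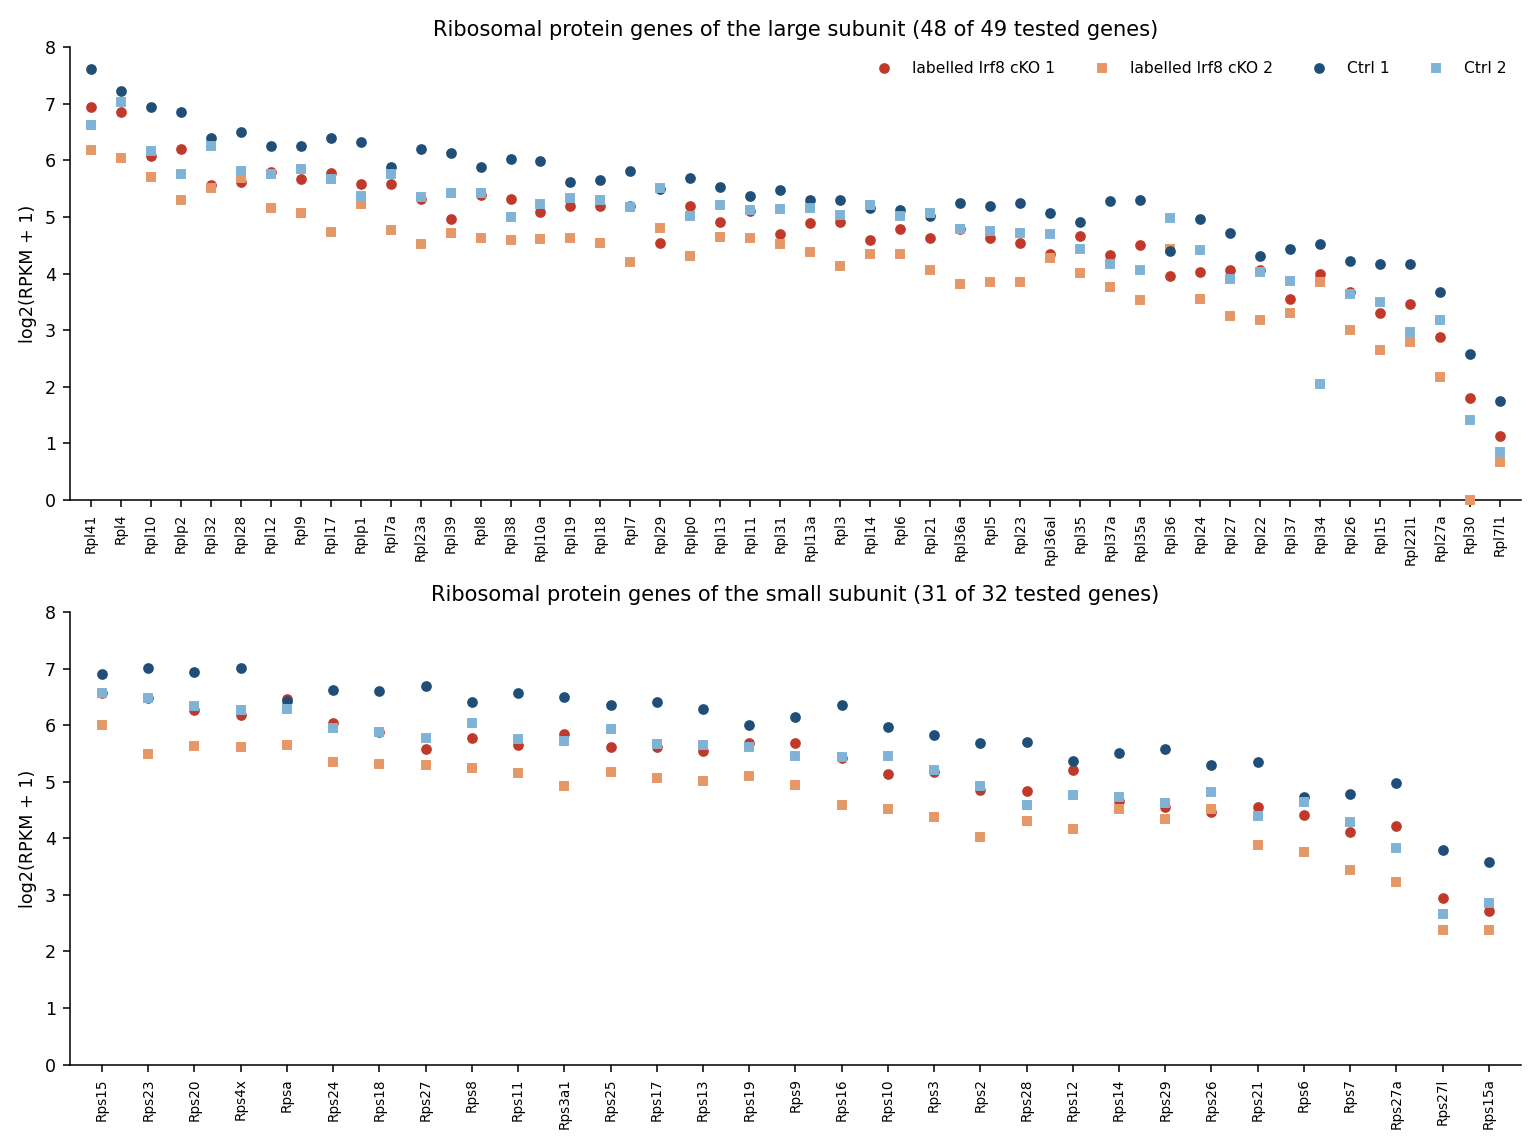
Level of each tested ribosomal protein gene in each library, as log2(RPKM + 1), with the large subunit above (48 of 49 tested genes drawn) and the small subunit below (31 of 32), both ordered by mean level. The highest of the 4 values was that of Ctrl 1 for 76 of all 81 tested genes and the lowest that of the library labelled Irf8 cKO 2 for 76; the low values of Rpl30 and the lone low Ctrl 2 value of Rpl34 stand out.

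By mean level over the 4 libraries, and in each but Ctrl 2, the large subunit was led by Rpl41, which encodes the smallest ribosomal protein, at 123 and 71.3 RPKM in the libraries labelled Irf8 cKO, against 196 and 97.8 RPKM in Ctrl. Rpl4, whose protein lines the exit tunnel of the growing peptide, followed at 115 and 65.3 RPKM, against 149 and 131 RPKM in Ctrl. The 2 groups did not overlap for Rpl4 and did for Rpl41. Rpl10, whose protein joins late in the maturation of the subunit, was at 66.7 and 51.3 RPKM, against 123 and 71.0 RPKM in Ctrl. Each library labelled Irf8 cKO lay below both Ctrl libraries. Rplp2, of the stalk that recruits elongation factors, was at 72.5 and 38.6 RPKM in the libraries labelled Irf8 cKO, against 114 and 53.0 RPKM in Ctrl. Its stalk partners were lower, Rplp1 at 47.1 and 36.5 RPKM, against 79.5 and 40.1 RPKM in Ctrl, and Rplp0 at 35.4 and 18.9 RPKM, against 50.3 and 31.4 RPKM in Ctrl. The groups overlapped for all 3 stalk genes, with the Ctrl library of experiment 2 below the library labelled Irf8 cKO of experiment 1. Rpl32, a gene often used as a reference transcript, averaged 45.3 ± 1.32 RPKM in the libraries labelled Irf8 cKO and 79.1 ± 5.81 RPKM in Ctrl (SD, n = 2 each). Scaled, the groups overlapped for Rpl32, with log2 differences of -0.58 in experiment 1 and 0.03 in experiment 2.

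In the small subunit Rps15 was the most abundant on average, at 93.8 and 63.0 RPKM in the libraries labelled Irf8 cKO, against 118 and 93.6 RPKM in Ctrl. Rps23, which encodes a protein of the decoding centre, was at 88.3 and 44.1 RPKM, against 128 and 88.3 RPKM in Ctrl. Within each experiment both genes were lower under the cKO label, and over both experiments their groups overlapped. Rps20 (76.5 and 48.9 RPKM, against 122 and 79.6 RPKM in Ctrl) and the X-linked Rps4x (71.4 and 48.1 RPKM, against 128 and 75.9 RPKM in Ctrl) gave groups that did not overlap. Rpsa, also known as the laminin receptor gene, was the exception in experiment 1: it was at 87.0 and 49.4 RPKM in the libraries labelled Irf8 cKO, against 85.6 and 77.6 RPKM in Ctrl. Rps2 was at 27.9 and 15.3 RPKM, against 50.3 and 29.3 RPKM in Ctrl, again without overlap of the groups.

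The paralogue genes that name a tissue-restricted copy, and Rps4y2, whose record is of a non-coding RNA, were listed at 0 or at low values. A value of 0 can come from the assignment of reads to records, since Rpl30 is also listed at 0 in 1 library. Rpl10l and Rpl3l were listed at 0 in all 4 libraries, where their parents Rpl10 and Rpl3 were among the expressed genes (Rpl3 at 29.1 and 16.5 RPKM in the libraries labelled Irf8 cKO, against 38.5 and 31.9 RPKM in Ctrl). In mouse Rpl10l and Rpl39l are known from testis and Rpl3l from muscle. Rpl39l was at 0 and 0.0774 RPKM in the libraries labelled Irf8 cKO, against 0 in both Ctrl libraries, and Rps4y2 was at 0.222 and 0 RPKM, against 0.116 and 0.0335 RPKM in Ctrl. These are the 4 genes that were not tested. The ubiquitous paralogues were detected below their parents, except Rpl36al in library 2 labelled Irf8 cKO. Rpl22l1 was at 10.0 and 5.95 RPKM, against 16.9 and 6.77 RPKM in Ctrl, beside Rpl22 at 15.6 and 8.10 RPKM, against 18.8 and 15.3 RPKM in Ctrl. Rps27l was at 6.68 and 4.20 RPKM, against 12.8 and 5.37 RPKM in Ctrl, far under Rps27 at 46.8 and 38.4 RPKM, against 103 and 53.8 RPKM in Ctrl. Rpl7l1, a gene linked to ribosome assembly, was the lowest tested gene by mean level, at 1.17 and 0.592 RPKM, against 2.36 and 0.804 RPKM in Ctrl. The parent Rpl7 was more abundant in each library, at 35.7 and 17.4 RPKM, against 55.0 and 35.1 RPKM in Ctrl. Rpl36al came nearest to its parent, at 19.3 and 18.2 RPKM, against 32.4 and 24.9 RPKM in Ctrl, beside Rpl36a at 26.7 and 13.0 RPKM, against 37.2 and 26.6 RPKM in Ctrl.

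These levels rest on sequence that is often shared. Of the 50-base words of a member's transcripts, a median of 53.3% also occurred in a transcript of another annotated gene (range 0% to 95.1% over the 85), and 46 of the 85 shared over 50%. No source used here says how the authors placed reads that match several genes, so levels of such genes are uncertain. The 46 tested genes that shared over 50% had a median mean level of 34.1 RPKM, against 36.7 RPKM for the other 35. Across the 81 tested genes the mean level and the shared share had a Spearman's rho of -0.01, given as a description.

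Relative to Ctrl, ribosomal protein genes of both subunits were lower in the libraries labelled Irf8 cKO on the deposited scale, by about the same factor in both experiments. The summed RPKM of the large subunit was 1646 and 1117 in the libraries labelled Irf8 cKO, against 2572 and 1768 in Ctrl, a ratio of 0.640 in experiment 1 and 0.632 in experiment 2. The small subunit summed to 1437 and 923 RPKM, against 2287 and 1449 RPKM in Ctrl, a ratio of 0.628 and 0.637. The median log2 difference over the 81 tested genes was -0.65, with -0.65 for the large and -0.67 for the small subunit. In bulk RNA, fewer cells of a type and less RNA per cell cannot be told apart.

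Tested gene by gene, this lowering did not pass the threshold. Log2(RPKM + 1) was fitted over all 6446 tested genes with limma and the experiment as a block, and p-values were Benjamini-Hochberg adjusted over all of them. At an adjusted p under 0.05, 1 of the 81 ribosomal protein genes was called lower (Rpl30) and 0 higher, against 1.09% of all tested genes called lower and 0.0931% called higher. At an unadjusted p under 0.05, 38 of the 81 were lower, 21 of the large and 17 of the small subunit, against 18.6% of all tested genes. Standard errors of the log2 differences were 0.23 to 0.35, and adjusted p-values ran from 0.00698 to 0.524. Rpl32 differed by -0.79 ± 0.34 (SE, adjusted p = 0.224 by limma) and Rps2 by -0.86 ± 0.35 (SE, adjusted p = 0.204 by limma). Both libraries labelled Irf8 cKO lay below both Ctrl libraries for 47 of the 81, against 44.7% of all tested genes, and 79 of the 81 were lower in both experiments, against 71.2%. Without a trend of the variance on the level, the same fit called 13 of the 81 lower, Rpl32 and Rps2 among them, against 4.30% of all tested genes. The labels do not state whether replicates are separate animals, so these p-values rest only on the spread between these libraries, which may be technical. In the fit as deposited with the trend, that spread was taken from genes of like level, since the prior degrees of freedom were infinite. Standard errors of that fit therefore do not reflect a gene's own spread between the experiments.

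Most genes were lower on the deposited scale. Over both experiments together, the ribosomal protein genes were less apart from genes of like level than from all genes. The median log2 difference over all 6446 tested genes was -0.35. Over the 1409 other genes with a mean of 5 RPKM or more it was -0.52, and over the 167 other genes with a mean of 20 RPKM or more it was -0.66, beside -0.65 for the ribosomal protein genes. This likeness did not hold within each experiment. The medians of the 167 genes were -0.48 in experiment 1 and -0.82 in experiment 2, against -0.66 and -0.63 for the ribosomal protein genes. With the pseudocount of 1, log2 differences of low genes are understated, which bears on the median over all tested genes. These level limits were chosen after the values were seen.

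After scaling, the ribosomal protein genes lay below the other genes in experiment 1 and slightly above them in experiment 2. Their median scaled log2 difference was -0.41 in experiment 1 and 0.13 in experiment 2, against 0.01 in each experiment for all tested genes. In experiment 1, 78 of the 81 were lower, against 48.9% of all tested genes, and in experiment 2, 28 of the 81, against 48.1%. The joint pattern, lower in experiment 1 and higher in experiment 2, was shown by 50 of the 81 (29 large, 21 small), against 21.6% of all tested genes. No gene was called by limma on the scaled values (0 of 81, against 0.0465% of all tested genes called lower and 0.0155% called higher). At an unadjusted p under 0.05, 2 were lower (Rpl27a and Rpl30), against 4.58%, and 0 were higher, against 5.94%. Both libraries labelled Irf8 cKO lay below both Ctrl libraries for 15 of the 81 on the scaled values, against 15.4%, and above them for 2 (Rpl35 and Rpsa), against 15.7%. In both experiments 28 were lower, against 27.3%, and 3 were higher (Rpl35, Rps12 and Rpsa), against 30.3%. With 1 library per group in each experiment, the difference between the experiments was not tested.

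**Figure D2:**
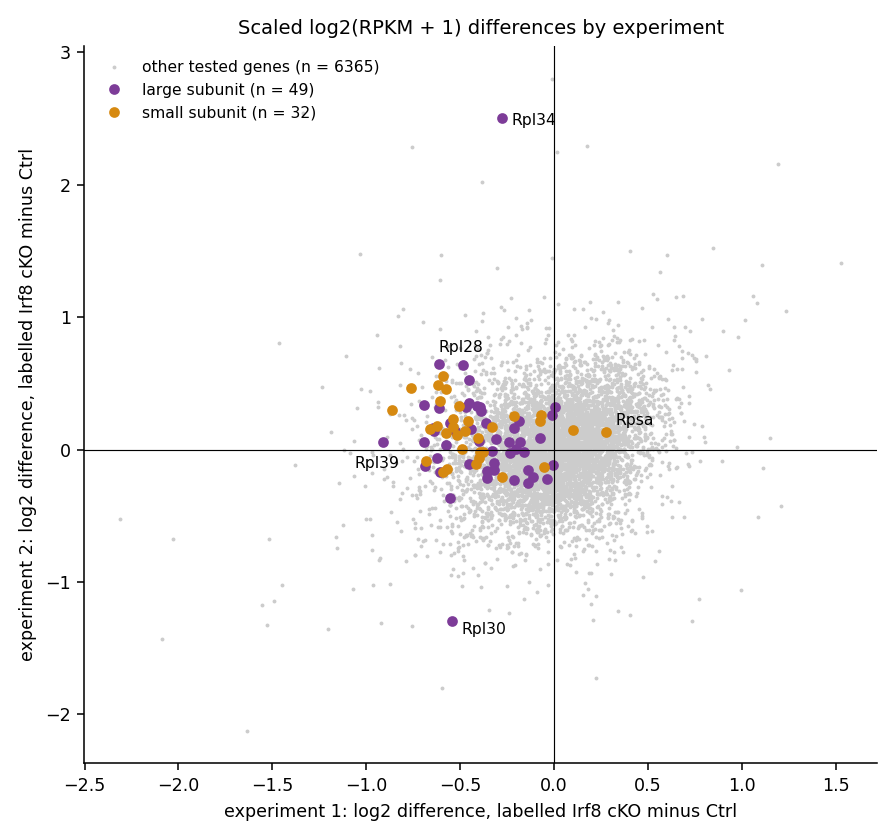
Scaled log2(RPKM + 1) difference, labelled Irf8 cKO minus Ctrl, of each tested gene in experiment 1 (horizontal) and experiment 2 (vertical); purple and orange points are the large (n = 49) and small (n = 32) subunit and grey points the other 6365 tested genes. Ribosomal protein genes sit to the left of 0 (78 of 81) and mostly above it (28 of 81 lie below), with Rpl34 and Rpl30 apart from the rest.

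Short genes outside the ribosome also lay lower in experiment 1 and higher in experiment 2. Ribosomal protein transcripts had a median length of 830 bases, against 2884 bases for all tested genes. Other tested genes of up to 1000 bases (n = 524) had a median scaled log2 difference of -0.21 in experiment 1 and 0.10 in experiment 2. Those among them with a mean of 5 RPKM or more (n = 165) had -0.35 in experiment 1 and 0.18 in experiment 2. In experiment 1 the median was higher in each longer class of other genes, with -0.08 and 0.02 in the 2 middle classes (n = 1319 and 2497) and 0.08 over 4000 bases (n = 1962). In experiment 2 it did not follow length steadily, with -0.03, -0.01 and 0.04 in the same classes. With a smooth trend on transcript length taken out of each experiment, the ribosomal protein genes had a median of -0.20 in experiment 1 and 0.01 in experiment 2. All tested genes then had 0.002 and -0.004, and the 165 short genes above had -0.08 and 0.05. The 167 other genes with a mean of 20 RPKM or more had -0.17 and -0.06, so the lowering left in experiment 1 was not particular to ribosomal protein genes. The trend was fitted over all tested genes, the ribosomal protein genes among them, so it can hold part of their own shift. The part of transcript length in the result was not tested.

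**Figure D3:**
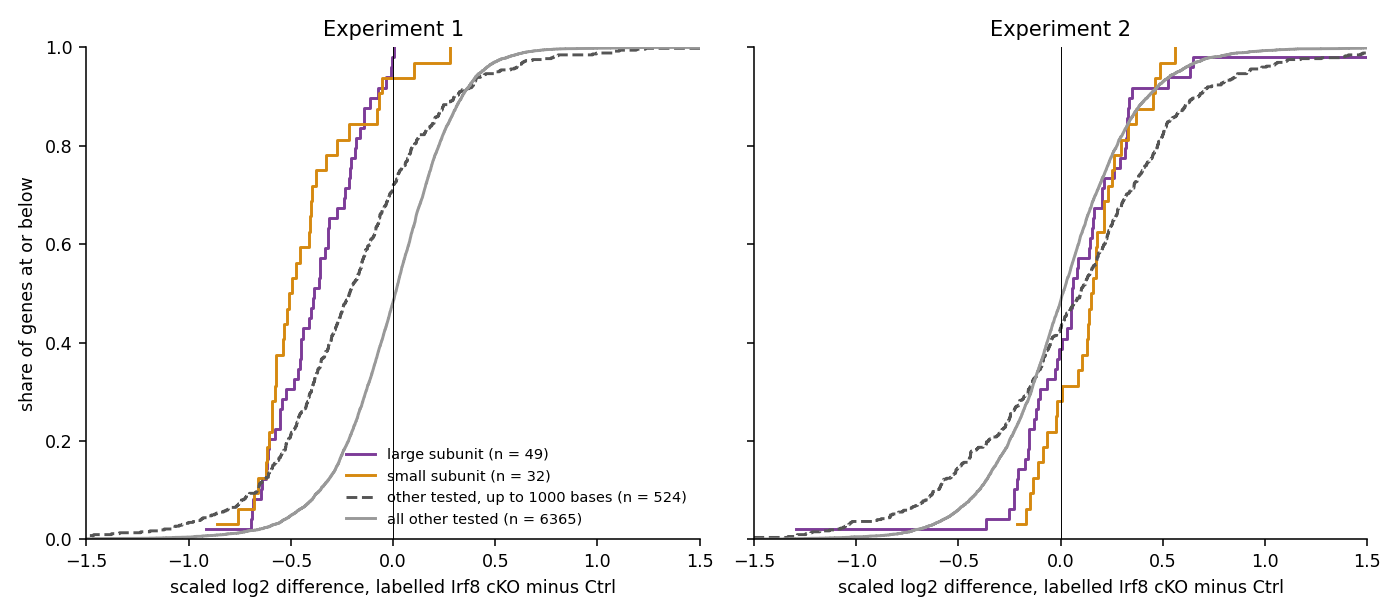
Cumulative share of genes by scaled log2 difference, labelled Irf8 cKO minus Ctrl, in experiment 1 (left) and experiment 2 (right), for the large and small subunit, for other tested genes of up to 1000 bases (dashed) and for all other tested genes (values beyond 1.5 in size are not drawn). Both subunits lie left of the other genes in experiment 1 (medians -0.39 and -0.50) and slightly right of 0 in experiment 2 (0.06 and 0.15). The other short genes have medians of -0.21 and 0.10.

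The large and the small subunit differed by less than the spread between libraries. The ratio of the summed large to the summed small subunit RPKM, which does not depend on the scaling of a library, was 1.15 and 1.21 in the libraries labelled Irf8 cKO, against 1.12 and 1.22 in Ctrl. The ratio was higher in experiment 2 than in experiment 1 in both groups, and the groups overlapped. The medians of the log2 differences of the subunits lay 0.02 apart, beside a spread of 0.16 (SD) of that quantity between the 2 experiments. Genes within a subunit differed among themselves in experiment 1 with an SD of 0.21 (large) and 0.25 (small) of the scaled log2 differences. In experiment 2 the SD was 0.46 for the large subunit, which holds Rpl34 and Rpl30, and 0.20 for the small.

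The genes that were lowest in experiment 1 were not those lowest in experiment 2. Across the 81 genes the scaled log2 differences of the experiments had a Pearson's r of -0.07 and a Spearman's rho of -0.22, against 0.21 for both across all 6446 tested genes; the experiments share no library, and genes are not independent replicates. Without Rpl34 and Rpl30 the r was -0.24. The lowest scaled differences in experiment 1 were those of Rpl39 (-0.91), another protein of the exit tunnel, and Rps27 (-0.86), a zinc finger protein. In experiment 2 these genes were at 0.06 and 0.30.

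Among named genes the lowest scaled differences over both experiments, after Rpl30, were those of Rpl27a, Rpl39 and Rpl24. Rpl27a was at 6.39 and 3.48 RPKM in the libraries labelled Irf8 cKO, against 11.8 and 8.05 RPKM in Ctrl, and its scaled log2 difference was -0.46 ± 0.16 (SE, limma adjusted p = 0.400). Rpl39 was at 30.1 and 25.3 RPKM, against 68.9 and 41.9 RPKM in Ctrl (scaled -0.43). Rpl24, which lies at the interface of the subunits, was at 15.4 and 10.7 RPKM, against 30.3 and 20.3 RPKM in Ctrl (scaled -0.41). For Rpl27a and Rpl24 the scaled difference was below 0 in both experiments. The highest scaled difference was that of Rpl34 (1.11 ± 0.53 (SE), limma adjusted p = 0.516), whose 2 experiments gave -0.28 and 2.50. Below it stood Rpsa (scaled 0.21), Rpl35 (0.16) and Rps12 (0.13), the 3 genes above 0 in both experiments. Rps12 was at 36.2 and 17.0 RPKM in the libraries labelled Irf8 cKO, against 40.3 and 26.3 RPKM in Ctrl, and Rpl35 at 24.3 and 15.1 RPKM, against 29.0 and 20.7 RPKM in Ctrl. On the deposited scale Rpsa, Rpl35 and Rps12 had log2 differences of -0.31, -0.34 and -0.38, so their sign depends on the scaling. None of Rpl27a, Rpl39, Rpl24, Rpsa, Rpl35 and Rps12 passed the threshold on either scale.

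Rpl28 had one of the widest sign differences between the experiments. It was at 48.4 and 50.3 RPKM in the libraries labelled Irf8 cKO, against 89.3 and 55.1 RPKM in Ctrl, which after scaling gave -0.61 in experiment 1 and 0.65 in experiment 2. The level under the cKO label was nearly the same in both experiments, and the Ctrl level was not.

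The lone call, Rpl30, and the widest sign difference, Rpl34, lay at loci that the tables list more than once. The tables hold a second record on the same strand over nearly the same positions for 4 ribosomal protein genes: Gm15772 with Rpl26, Gm12191 with Rpl30, Rpl34-ps1 with Rpl34 and Gm9846 with Rps27. Rpl30 (chr15:34440508-34443276, minus strand, mm10 as deposited) was at 2.50 and 0 RPKM in the libraries labelled Irf8 cKO, against 4.95 and 1.65 RPKM in Ctrl, a log2 difference of -1.09 ± 0.26 (SE, limma adjusted p = 0.00698). Gm12191 (chr15:34440506-34443233, minus strand) was at 51.4 and 28.9 RPKM, against 80.6 and 47.1 RPKM in Ctrl. The record that bears the gene's name thus held a small part of the signal of the locus, with no library above 4.95 RPKM. Summed over both records the locus was at 53.9 and 28.9 RPKM in the libraries labelled Irf8 cKO, against 85.5 and 48.8 RPKM in Ctrl, a log2 difference of -0.70 (limma adjusted p = 0.253), near the median of the other ribosomal protein genes. With records summed at all 4 loci, limma called 0 of the 81 genes lower, against 1.06% of all tested genes.

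Rpl34 (chr3:130726837-130730308, minus strand) was at 14.9 and 13.4 RPKM in the libraries labelled Irf8 cKO, against 21.9 and 3.14 RPKM in Ctrl. It was the only tested ribosomal protein gene with a positive log2 difference on the deposited scale (0.63 ± 0.34 (SE), limma adjusted p = 0.279), and the second Ctrl library was far below the other 3. The 2 experiments gave Rpl34 -0.52 and 1.79 on that scale, a spread that this SE does not reflect. Rpl34-ps1 (chr3:130726837-130730329, minus strand) was at 13.3 and 5.93 RPKM, against 31.2 and 27.1 RPKM in Ctrl, and was called lower (-1.60, limma adjusted p = 0.00160; scaled -1.12, adjusted p = 0.137). In both libraries labelled Irf8 cKO Rpl34 was the higher of the 2 records, and in both Ctrl libraries the lower. The sum was 28.2 and 19.3 RPKM in the libraries labelled Irf8 cKO, against 53.1 and 30.2 RPKM in Ctrl, with a log2 difference of -0.76 (limma adjusted p = 0.239), so the sign of Rpl34 turned when its records were summed. The authors' deposited table gives Rpl34 a log2 ratio of 2.78 with p = 2.32e-06 in experiment 2 and Rpl30 a log2 ratio of -8.88 with p = 0.00456. For Rpl26 and Rps27 the paired records held nearly equal values. Rpl26 was at 11.8 and 7.03 RPKM, against 17.8 and 11.4 RPKM in Ctrl, and Gm15772 at 12.3 and 7.34 RPKM, against 18.5 and 11.9 RPKM in Ctrl.

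**Figure D4:**
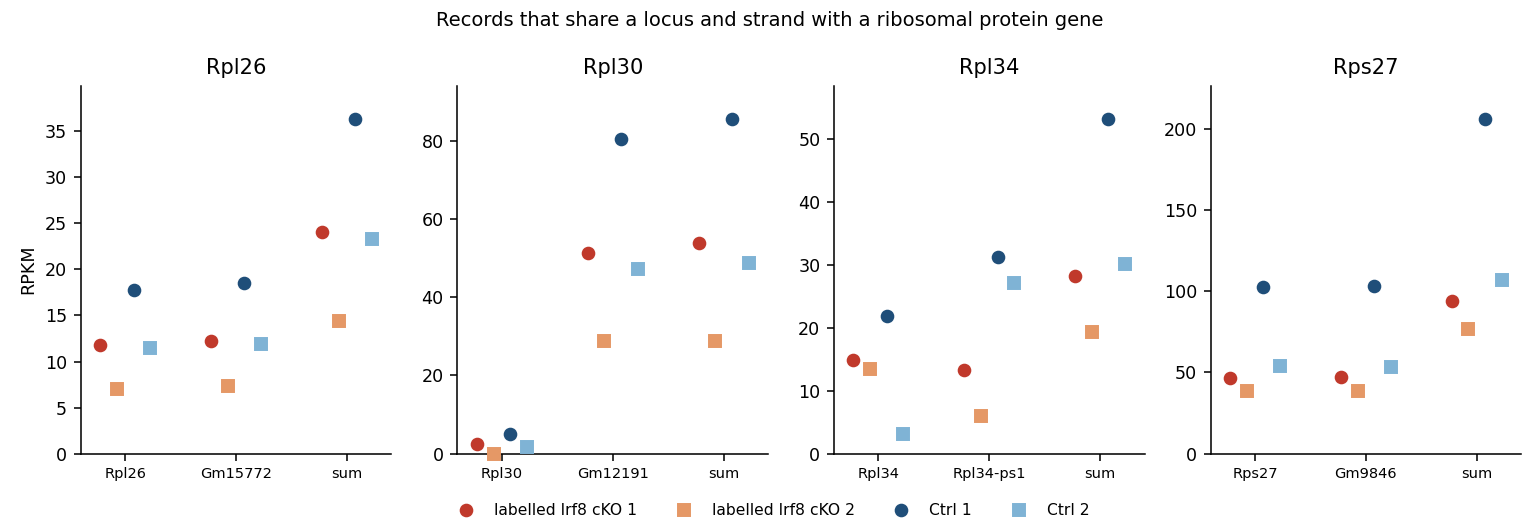
RPKM of 4 ribosomal protein genes, of the record that shares the locus and strand, and of their sum, in each library (circles experiment 1, squares experiment 2). Rpl30 holds little of its locus's signal, Rpl34 is the higher of its 2 records in both libraries labelled Irf8 cKO and the lower in both Ctrl libraries, most so in Ctrl 2 (3.14 against 27.1 RPKM), and at all 4 loci the sum is lowest in the library labelled Irf8 cKO 2 and highest in Ctrl 1.

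The authors' deposited table for each experiment compares 1 library with 1 library, on the authors' own scaling of the same values. In that of experiment 1, 79 of the 81 had a log2 ratio below 0, against 54.8% of all tested genes, and 19 (11 large, 8 small) were lower at the authors' p under 0.05, against 2.87%; 0 were higher, against 1.78%. In the authors' deposited table of experiment 2, 36 of the 81 had a log2 ratio below 0, against 54.5%, with 1 lower at that p (Rpl30), against 1.95%, and 1 higher (Rpl34), against 1.66%. Rpl39 and Rps27 had the authors' p-values of 0.00416 and 0.00545 in experiment 1, and 0.987 and 0.552 in experiment 2.

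Fau and Gnb2l1 encode components of the small subunit whose names do not follow the rule, Fau a fusion of a ubiquitin-like protein with a ribosomal protein and Gnb2l1 the scaffold Rack1. Gnb2l1 was at 42.1 and 25.8 RPKM in the libraries labelled Irf8 cKO, against 74.4 and 45.1 RPKM in Ctrl, with scaled log2 differences of -0.55 in experiment 1 and -0.02 in experiment 2. Fau was at 32.9 and 17.9 RPKM, against 50.6 and 29.4 RPKM in Ctrl, with -0.35 and 0.07. Neither was called on either scale (limma adjusted p = 0.231 and 0.281 as deposited).

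Other mRNAs of the TOP class and the elongation factors had a median scaled log2 difference of -0.03 in experiment 1 and -0.17 in experiment 2 (11 of 11 tested, 0 called), beside -0.41 and 0.13 for the ribosomal protein genes; the difference between the lists was not tested. Eef1a1, which brings aminoacyl-tRNA to the ribosome, was at 317 and 151 RPKM in the libraries labelled Irf8 cKO, against 351 and 269 RPKM in Ctrl. Eef2, the translocase, was at 79.8 and 46.2 RPKM, against 84.9 and 98.3 RPKM in Ctrl. Npm1, a nucleolar chaperone of ribosome assembly, was at 144 and 57.4 RPKM, against 139 and 112 RPKM in Ctrl. On the deposited scale these 3 genes lay nearer to Ctrl in experiment 1 than in experiment 2. On the scaled values this did not hold for Eef1a1 (0.11 in experiment 1 and -0.05 in experiment 2) or Npm1 (0.30 and -0.17).

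Counts of called genes in the lists that follow are from the fit as deposited, which called 1.09% of all tested genes lower and 0.0931% higher, with the scaled fit at 0.0465% and 0.0155%. Of 38 translation initiation factors 36 were tested and 0 called, with a median log2 difference of -0.51 (scaled -0.07). Eif3a, a subunit of the factor that binds the small subunit, was at 28.9 and 21.5 RPKM in the libraries labelled Irf8 cKO, against 25.9 and 29.9 RPKM in Ctrl. Of 13 regulators of these genes and their translation 12 were tested and 0 called, with a median of -0.36 (scaled 0.06). Myc, which drives ribosome biogenesis, was at 2.58 and 2.12 RPKM, against 2.87 and 3.72 RPKM in Ctrl, and Gabpa, an Ets factor, at 5.35 and 3.05 RPKM, against 6.35 and 4.83 RPKM in Ctrl. Mtor was at 1.37 and 1.68 RPKM, against 1.19 and 1.65 RPKM in Ctrl. Among 8 chaperones and importins of ribosomal proteins 6 were tested, and 1 was called lower: Bccip, a chaperone of Rpl23, at 2.21 and 1.47 RPKM, against 4.48 and 4.88 RPKM in Ctrl (-1.01, limma adjusted p = 0.0467; scaled -0.63, adjusted p = 0.267). Of 6 annotated pseudogenes of ribosomal proteins, 3 were tested, and Rpl34-ps1 was the 1 called.

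Ribosomal protein genes also host small nucleolar RNAs in their introns. The tables hold 33 such entries within the loci of 23 of the 85 genes, none above 6.20 RPKM in any library. Snord68, within Rpl13, guides ribosomal RNA methylation. It was at 1.91 and 2.27 RPKM in the libraries labelled Irf8 cKO, against 0.283 and 0 RPKM in Ctrl (log2 difference 1.45, scaled 1.67). Snord68 was singled out after its values were seen. It reached 1 RPKM only in the libraries labelled Irf8 cKO, so it entered the fit through the group where it was high. No p-value is therefore given for it.

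The median over the ribosomal protein genes depended on which libraries entered. Without the library labelled Irf8 cKO 2, which stood apart, the median log2 difference was -0.34 as deposited and -0.17 scaled. Without Ctrl 1 it was -0.38 as deposited and 0.05 scaled, a change of sign, and without Ctrl 2 it was -0.97 and -0.38. With library 1 labelled Irf8 cKO left out it was -0.95 and -0.12.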

How the data were processed

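Per the labels' protocols, RNA of the 4 germinal centre B cell samples (RNeasy Mini kit) went through amplification with Ovation RNA-Seq System v2 and library preparation with Nextera XT. For each experiment the authors deposited 1 table with the RPKM of both libraries, and the series design text names the Wardrobe platform for them. Per the file headers, the deposited tables also hold a log2 ratio and a p-value of the authors' own comparison, unadjusted judging by its values. The aligner behind these RPKM values is unnamed in the sources used here. Tools listed without a role in the submitters' processing notes are TopHat2 2.0, Cuffdiff, Cufflinks 2.2 and DESeq, with the builds mm9 and mm10, and 55 of 64 matched starts lay within 5 bases of those of GRCm38.p6.

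Genes entered with 1 RPKM or more in at least 2 of the 4 libraries. Differences of log2(RPKM + 1), labelled Irf8 cKO minus Ctrl, were tested 2-sided with limma 3.58.1 (R 4.3.3; empirical Bayes with trend, experiment as block, 1 residual degree of freedom), and Benjamini-Hochberg adjusted over 6446 genes. The prior degrees of freedom were infinite as deposited and 6.44 scaled, so the deposited fit used the variance trend over genes in place of each gene's own variance. The fit was tested on simulated data first. Each experiment has its own table and its own pair of libraries, and deviations of same-numbered libraries from their group means correlated at 0.377 (0.331 after scaling). Whole reads were not recovered: 70.3% to 75.9% of low values lay within 0.1 reads of a whole number, so the depths given are estimates and counting intervals are not given. Shared 50-base words and transcript lengths came from an annotation of the same build, motifs from RefSeq promoters.

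The ribosomal protein genes and all gene lists were chosen with earlier results of these data known. Genes were named by rule: the markers Rpl32 and Rps2, the 6 most abundant of each subunit, the 4 lowest and 4 highest scaled differences, any gene past the threshold, the 2 widest sign differences between experiments, and paralogues with their parents. A few genes that enter the fits and counts are not reported here by name. Other genes are examples of their lists. Alternatives were scaling, no block, another pseudocount and filters, removal of a length trend, no variance trend, each library left out and, added after seeing the data, summed overlapping records.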

Additional observations from a re-analysis of the deposited data

How the results depend on the processing

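With the replicate block left out the number of genes called was 21, against 76 with it, and 0 of the ribosomal protein genes were called, against 1. Genes called numbered 4 after median-of-ratios scaling, 6 scaled without the block, 0 with a pseudocount of 0.1 and scaling, 0 without the filter, 17 with a mean of 5 RPKM or more, 0 with the length trend removed, 283 without a variance trend and 7 with overlapping records summed and scaling. Ribosomal protein genes called numbered 13 without a variance trend and 0 under each of the other settings just named, and 0 with records summed as deposited. The median log2 difference of the ribosomal protein genes, -0.65, was -0.15 scaled with or without the block, -0.68 with a pseudocount of 0.1, -0.16 with that and scaling, -0.095 with the length trend removed and -0.16 with summed records and scaling. Scaled, with that pseudocount and scaling, with the length trend removed, and with summed records and scaling, the large subunit had -0.15, -0.15, -0.083 and -0.15, and the small subunit -0.17, -0.17, -0.10 and -0.17. Scaling, with or without the block and with summed records, turned these signs: Rps15 0.069, Rpsa 0.21, Rps12 0.13, Rpl35 0.16, Rpl28 0.016, Rpl22l1 0.037. With the pseudocount of 0.1 and scaling the values were Rps15 0.070, Rpsa 0.21, Rps12 0.13, Rpl35 0.17, Rpl28 0.016, Rpl22l1 0.051. With the length trend removed they were Rpl41 0.030, Rplp2 0.042, Rps15 0.14, Rpsa 0.23, Rps12 0.20, Rpl35 0.24, Rpl28 0.086, Rpl22l1 0.11, Rpl36al 0.0023. Summing records turned Rpl34 to -0.76, or -0.25 scaled. The cause of these changes was not tested.

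Fits with 1 library left out had no block, were run with and without scaling, and assume that the lone library varies like the other group. Genes called ranged from 0 to 1459, the highest as deposited with library 1 labelled Irf8 cKO left out, and ribosomal protein genes called from 0 to 3. Their median ranged from -0.97 to 0.048, that of the large subunit from -0.95 to -0.0030 and that of the small from -1.03 to 0.098. The large minus small difference, 0.024, ranged from -0.10 to 0.14. Of the 28 named genes tested, 18 changed sign in at least 1 of these fits, with ranges Rpl10 -1.05 to 0.16, Rpl22 -0.98 to 0.053, Rpl22l1 -1.03 to 0.55, Rpl28 -0.84 to 0.39, Rpl32 -0.86 to 0.041, Rpl34 -0.60 to 2.25, Rpl35 -0.66 to 0.32, Rpl36al -0.76 to 0.22, Rpl41 -1.06 to 0.37, Rpl7l1 -0.85 to 0.23, Rplp2 -1.10 to 0.43, Rps12 -0.90 to 0.34, Rps15 -0.73 to 0.15, Rps20 -0.99 to 0.058, Rps27 -1.26 to 0.095, Rps27l -1.13 to 0.36, Rps4x -1.11 to 0.065, Rpsa -0.71 to 0.26. At low levels, as in Rpl7l1 and the Rpl30 record, few reads limit the precision.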
